A study of Homo sapiens with 4 samples.

Results

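Integrins are the receptors by which cells hold to the extracellular matrix and to each other, and their cytoplasmic activators are the proteins that bind their tails and switch them on. The genes followed here were 36: 18 alpha subunits, 8 beta subunits and 10 activators and adaptors, namely 2 talins, 3 kindlins, ILK, the PINCH protein LIMS1 and 3 parvins. They were found by gene symbol among 58274 gene identifiers, and all 36 were in the table. RNA was sequenced from 4 populations that follow each other in the hematopoietic differentiation of BC1, a line of human induced pluripotent stem cells. They were undifferentiated BC1 cells, sorted APLNR+ mesoderm cells of day 2, CD31+CD34+ hemogenic endothelial progenitors (HEPs) of day 5 and CD43+ hematopoietic progenitor cells (HPCs) of day 8. Differentiation began with activin A and BMP4 for 2 days, at the end of which the APLNR+ cells were taken, and went on with VEGF and bFGF for the CD31+CD34+ and CD43+ cells. The labels name no gene edit and no inhibitor for these samples. Each population is 1 library from a single line, so no difference below has a replicate check and the populations were not compared by any statistical test.

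An integrin is a pair of 1 alpha and 1 beta subunit. The alpha subunit largely sets which ligand is bound (laminin, collagen, or the RGD motif of fibronectin, vitronectin and fibrinogen), and the short tail of the beta subunit carries the sites for talin and kindlin. Talin and kindlin binding to the beta tail brings the receptor into its high affinity state, which is called inside-out activation, and the complex of ILK, PINCH and parvin ties kindlin to actin. In blood, ITGB2 pairs serve leukocytes, the ITGA2B-ITGB3 pair is the fibrinogen receptor of platelets, and ITGA4 is carried by blood progenitors.

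Promoter sequences were searched for motifs in every member that had one. RefSeq promoter windows (GRCh38.p14) were found for 25 of the 36 members. Windows that overlap an annotated exon are not printed, which leaves out those of ITGA5 and FERMT3. The 250 bases before the annotated start are given here for 3 genes that moved in different directions: ITGA2B, which was highest in CD43+ cells, ITGA6, which fell at the first step, and ITGB5, which fell at the second. Capitals mark exact matches, on either strand, to any of 5 motifs: AGATAA for GATA factors, TGTGGT for RUNX, GGAAGT for ETS, CAGGTG for the E-box of SNAIL factors and GGAATG for TEAD.
ITGA2B (chr17:44389650-44389899, minus strand): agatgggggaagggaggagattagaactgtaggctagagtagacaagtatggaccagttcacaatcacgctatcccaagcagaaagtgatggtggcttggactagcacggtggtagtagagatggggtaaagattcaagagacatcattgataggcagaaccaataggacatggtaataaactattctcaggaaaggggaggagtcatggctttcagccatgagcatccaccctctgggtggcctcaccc
ITGA6 (chr2:172427086-172427335, plus strand): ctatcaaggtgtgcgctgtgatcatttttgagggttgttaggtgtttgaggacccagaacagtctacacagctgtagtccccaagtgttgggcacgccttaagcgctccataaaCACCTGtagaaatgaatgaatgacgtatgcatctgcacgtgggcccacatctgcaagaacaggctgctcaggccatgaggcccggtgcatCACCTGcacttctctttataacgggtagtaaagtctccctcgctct
ITGB5 (chr3:124901419-124901668, minus strand): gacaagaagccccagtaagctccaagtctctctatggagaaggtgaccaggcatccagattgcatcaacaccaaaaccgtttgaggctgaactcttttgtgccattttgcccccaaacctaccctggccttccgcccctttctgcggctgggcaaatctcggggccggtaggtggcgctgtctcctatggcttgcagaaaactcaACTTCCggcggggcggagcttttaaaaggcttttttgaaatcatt
The ITGA6 window held the SNAIL E-box at 136 and 46 bases before the start, both on the opposite strand. The ITGB5 window held the ETS motif 45 bases before the start, also on the opposite strand. None of the 5 motifs was in the ITGA2B window, which says only that these letters are not in it. Its RefSeq start lies 144 bases upstream of the start in GENCODE. The 25 members had 35 windows in all, some genes having several starts. The SNAIL E-box was in 5 of these 35 windows and in 17.5% of 35116 promoter windows of this length. The ETS motif was in 10 of the 35, from 8 members, and in 19.5% of all windows. The GATA motif was in 2, those of ITGAV and LIMS1, and in 9.17% of all windows. The RUNX motif was in 2 of the 35 and 11.0% of all windows, and the TEAD motif in 3 and 11.9%. A match is a description of the sequence and not evidence of binding.

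The depth read back from the values ran from 19700000 to 23600000 mapped fragments, and the value of every gene is given in FPKM (fragments per kilobase of transcript, scaled to the mapped fragments of the library), which allows levels to be compared between genes. The sorting markers had the following levels: APLNR reached 1073 FPKM in APLNR+ cells, PECAM1 (CD31) and CD34 reached 93.1 and 102 FPKM in CD31+CD34+ cells, and SPN (CD43) reached 92.4 FPKM in CD43+ cells. PECAM1 was higher still in CD43+ cells, at 126.5 FPKM. The summed level of 11 megakaryocytic marker genes was 5.31, 2.78, 60.3 and 2934 FPKM in the order of differentiation, and that of 11 erythroid markers was 11639 FPKM in CD43+ cells. All 11 of each list reached at least 1 FPKM there. The 11 myeloid markers summed to 450.7 FPKM in the same library, where 7 of them reached 1 FPKM. The 7 lymphoid markers summed to at most 3.24 FPKM, and PTPRC (CD45) was at most 0.0349 FPKM. In such bulk samples a lower level may mean fewer cells of a type or less RNA per cell, and these cannot be told apart.

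Of the 36 members, 29 reached at least 1 FPKM in at least 1 library and are described below. A member is said to have risen or fallen when its log2(FPKM + 1) moved by at least 1 between 2 libraries. From BC1 to APLNR+ cells, 4 of the 29 rose and 6 fell, while 9.15% of 17137 genes rose and 9.32% fell. Between APLNR+ and CD31+CD34+ cells, 13 rose and 2 fell, against 13.0% and 11.4% of all genes. Between CD31+CD34+ and CD43+ cells, 7 rose and 11 fell, against 7.63% and 13.5%. The members that rose were thus 13.8%, 44.8% and 24.1% of the 29 at the 3 steps, and those that fell were 20.7%, 6.90% and 37.9%. The median member change was 0.26, 0.77 and -0.08 on the log2(FPKM + 1) scale, beside 0.00, 0.01 and -0.08 over all genes. By their highest level, 6 members peaked in BC1, 5 peaked in APLNR+ cells, 8 in CD31+CD34+ cells and 10 in CD43+ cells. These are 20.7%, 17.2%, 27.6% and 34.5% of the members, beside 27.7%, 22.7%, 25.5% and 24% of all genes. The 7 members below 1 FPKM throughout were ITGA11, ITGAD, ITGAM, ITGAX, ITGB6, ITGB7 and ITGB8, of which ITGAD and ITGB6 were listed at 0 in all 4 libraries.

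**Figure D1:**
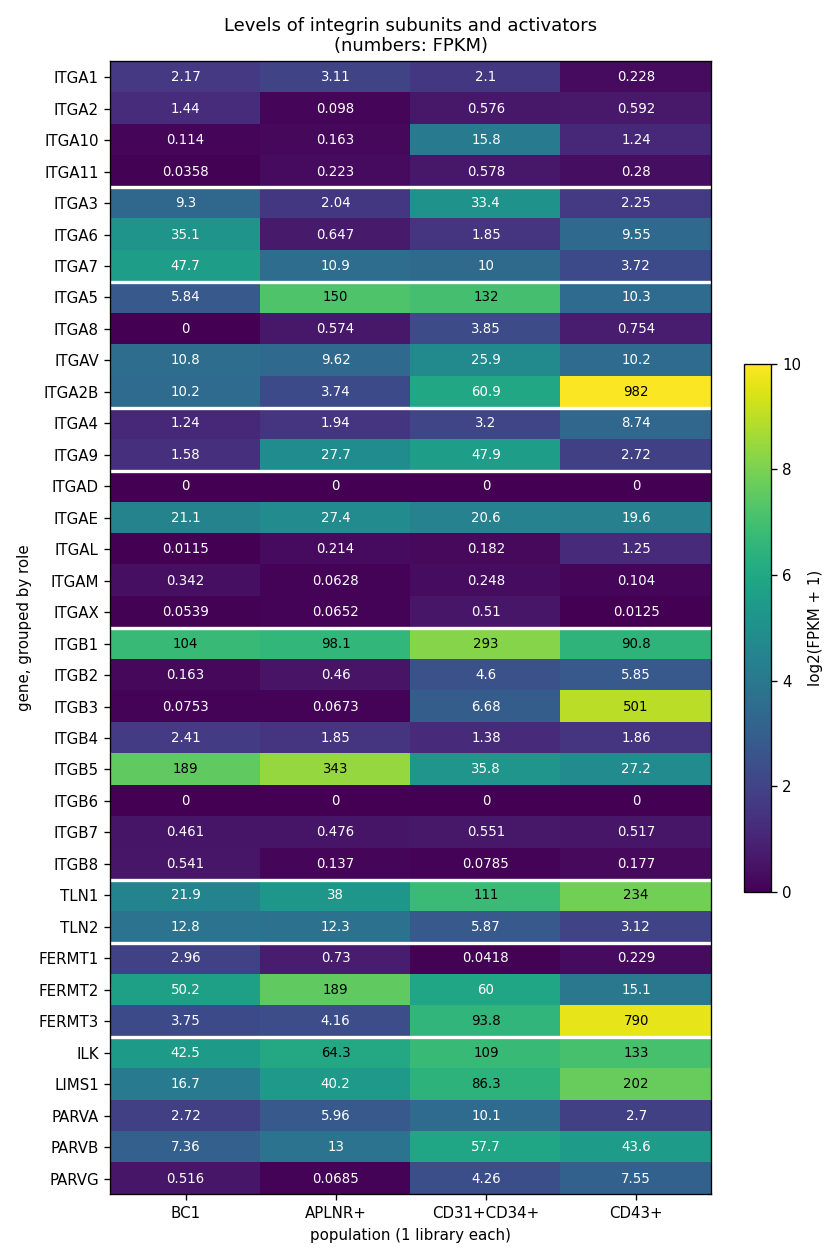
Levels of the 36 members (rows, grouped by role) in the 4 libraries (columns), with colour on the log2(FPKM + 1) scale and the FPKM printed in each cell. ITGA2B (982), FERMT3 (790) and ITGB3 (501) are the brightest cells of the CD43+ column, and ITGB5 (343) of the APLNR+ column.

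**Figure D2:**
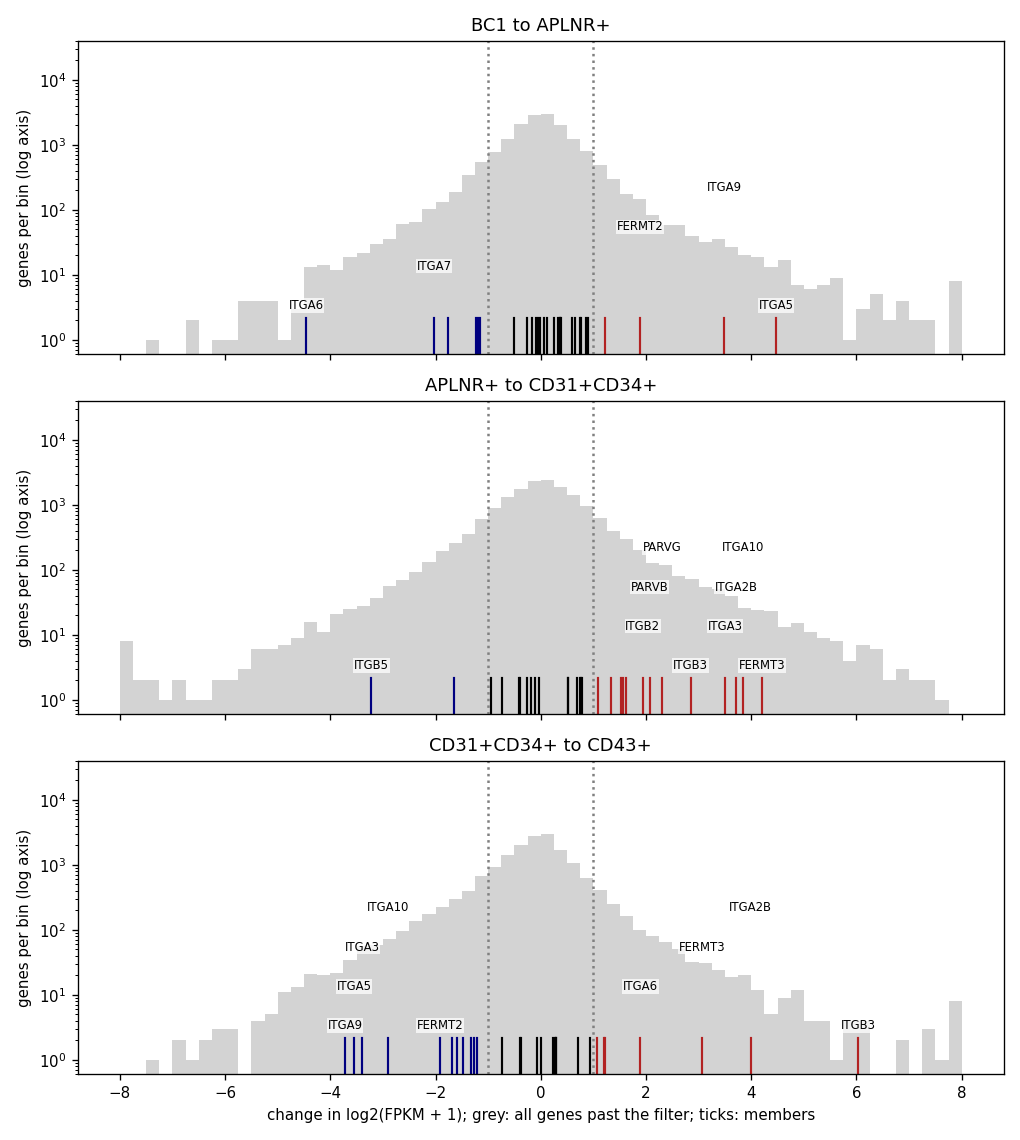
Change in log2(FPKM + 1) at each of the 3 steps (horizontal axis), with all 17137 genes as a grey histogram on a log axis (changes beyond 8 in either direction stand in the end bins) and the 29 members as ticks, red for rises, blue for falls and black for neither. The dotted lines mark changes of 1 and -1, and the members farthest out are named, ITGB3 at 6.03 at the last step and ITGA6 at -4.46 at the first among them.

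All 3 laminin-binding alpha subunits fell at the first step, at which 9.32% of all genes fell. The other 3 members that fell there were ITGA2, ITGA2B and FERMT1. ITGA6 (chromosome 2, 172427354 to 172506282), which holds pluripotent cells to laminin, was at 35.1, 0.647, 1.85 and 9.55 FPKM in BC1, APLNR+, CD31+CD34+ and CD43+ cells. It fell 54.3-fold at the first step, with a 95% interval of 39.9 to 74.2 from counting, the 24th largest fall of the 17137 genes, and it rose 5.15-fold at the last step (4.28 to 6.25). The level in CD43+ cells remained below that in BC1. ITGA7, a laminin receptor known best from muscle, was at 47.7, 10.9, 10.01 and 3.72 FPKM, so it fell 4.37-fold at the first step and 2.70-fold at the last. ITGA3 was at 9.30, 2.04, 33.4 and 2.25 FPKM. It fell 4.56-fold, then rose 16.4-fold (13.2 to 20.5) into CD31+CD34+ cells and fell 14.8-fold (12.1 to 18.5) into CD43+ cells, which made it a subunit with its peak in the endothelial population. The 3 laminin receptors therefore had different courses after day 2.

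The RGD-binding subunits changed their order during differentiation. ITGA5 (chromosome 12, 54395261 to 54419460), the alpha subunit of the main fibronectin receptor, was at 5.84, 150.5, 132 and 10.3 FPKM in the order of differentiation. It was high in the mesoderm and endothelial libraries and low at both ends. The rise from BC1 to APLNR+ cells was 25.8-fold (22.8 to 29.2), the 74th largest of all genes, and the fall from CD31+CD34+ to CD43+ cells was 12.8-fold (11.7 to 13.98). ITGA2B (CD41; chromosome 17, 44372180 to 44389505), the alpha subunit of the platelet fibrinogen receptor and an early surface marker of blood formation, was at 10.2, 3.74, 60.9 and 982 FPKM. It fell 2.73-fold, rose 16.3-fold (14.1 to 18.97) and rose again 16.1-fold (15.6 to 16.7), the 70th largest rise of the last step. Its level in CD43+ cells ranked 100th of all genes in that library. ITGAV, the partner of several beta subunits in vitronectin binding, was at 10.8, 9.62, 25.9 and 10.2 FPKM and differed little between BC1, APLNR+ and CD43+ cells, but it was 2.69-fold higher in CD31+CD34+ than in APLNR+ cells. ITGA8, a receptor for nephronectin, was listed at 0 in BC1 and was at 0.574, 3.85 and 0.754 FPKM afterwards, rising into and falling out of CD31+CD34+ cells.

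The remaining alpha subunits included 2 that were high on day 5 and low again on day 8. ITGA9, which binds tenascin and VCAM1, was at 1.58, 27.7, 47.9 and 2.72 FPKM, so it rose 17.5-fold (13.6 to 23.0) at the first step and fell 17.6-fold (14.7 to 21.4) at the last. ITGA10, a collagen receptor best known from cartilage, was at 0.114 FPKM in BC1 and 0.163 in APLNR+ cells, reached 15.8 FPKM in CD31+CD34+ cells and was at 1.24 in CD43+ cells. ITGA9 and ITGA10 thus both fell by more than 10-fold between CD31+CD34+ and CD43+ cells. The 7 fibroblast and smooth muscle markers summed to 186, 214, 521 and 81.4 FPKM over the same libraries. Of the 6 past the filter, 3 rose and 0 fell at the second step, and 1 rose and 4 fell at the last. COL1A1 went from 184 to 27.7 FPKM and COL1A2 from 207 to 16.3 FPKM at the last step, while DCN was listed at 0 in both. POSTN rose there, from 0 to 1.20 FPKM. TAGLN went from 117 to 74.7 FPKM at the second step, where the sum went up. Of the 7 endothelial markers, which summed to 1382 FPKM in CD31+CD34+ cells, 7 rose at the second step and 6 fell at the last. Of all genes, 13.0% rose and 11.4% fell at the second step, and 7.63% rose and 13.5% fell at the last. The part of either list in the levels of ITGA3, ITGA9 and ITGA10 was not tested. ITGA4, which binds VCAM1 and fibronectin, was at 1.24, 1.94, 3.20 and 8.74 FPKM and passed the size rule only at the last step, by 2.73-fold (2.23 to 3.37). The collagen receptor ITGA1 was at 2.17, 3.11, 2.10 and 0.228 FPKM, so that its loss at the last step was 9.19-fold (6.86 to 12.4). ITGA2, also a collagen receptor, was at 1.44, 0.0980, 0.576 and 0.592 FPKM and fell at the first. Among the leukocyte alpha subunits, ITGAE was at 21.1, 27.4, 20.7 and 19.6 FPKM, with no step past the size rule, and ITGAL was at 0.0115, 0.214, 0.182 and 1.25 FPKM. The ITGAE reads may include those of HASPIN, a gene inside it on the opposite strand at 6.98 to 12.5 FPKM, since use of strand is not stated.

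The leading beta subunit changed between the populations. ITGB5 (chromosome 3, 124761948 to 124901418), which binds vitronectin with ITGAV, was the highest beta subunit in BC1 and APLNR+ cells. It was at 189, 343, 35.8 and 27.2 FPKM, and its fall into CD31+CD34+ cells was 9.57-fold (8.70 to 10.6). ITGB1, the partner of most alpha subunits, was at 104, 98.1, 293 and 90.8 FPKM, so it rose 2.99-fold (2.73 to 3.27) into CD31+CD34+ cells and fell 3.23-fold (2.94 to 3.55) into CD43+ cells. ITGB3 (CD61; chromosome 17, 47253846 to 47311816) was at 0.0753, 0.0673, 6.68 and 501 FPKM. The first 2 values stand for about 4 fragments each, and the rise from CD31+CD34+ to CD43+ cells was 75.0-fold (68.0 to 83.0), the 18th largest of 17137 genes. ITGB2, the leukocyte beta subunit, was at 0.163, 0.460, 4.60 and 5.85 FPKM and rose into CD31+CD34+ cells, with an interval of 3.69 to 38.97 around a 9.996-fold change. With its longest transcript in place of the median length, the interval was 7.31 to 13.8. ITGB4, the laminin partner of ITGA6, was at 2.41, 1.85, 1.38 and 1.86 FPKM, and no step passed the size rule. ITGB1 and ITGB5 fell at different steps. Only ITGB3 of the 5 beta subunits past the filter rose at the last step, at which 7.63% of all genes rose. Of the 11 megakaryocytic markers, 5 rose and 0 fell at the second step, beside 13.0% and 11.4% of all genes. At the last step 9 rose and 1 fell, beside 7.63% and 13.5% of all genes. PF4 (14.4 to 1674 FPKM) and PPBP (0.194 to 256 FPKM) were among those that rose. VWF fell from 13.6 to 1.54 FPKM, and GP6 was at 0.427 and 1.17 FPKM. Their part in the ITGA2B and ITGB3 levels was not tested.

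**Figure D3:**
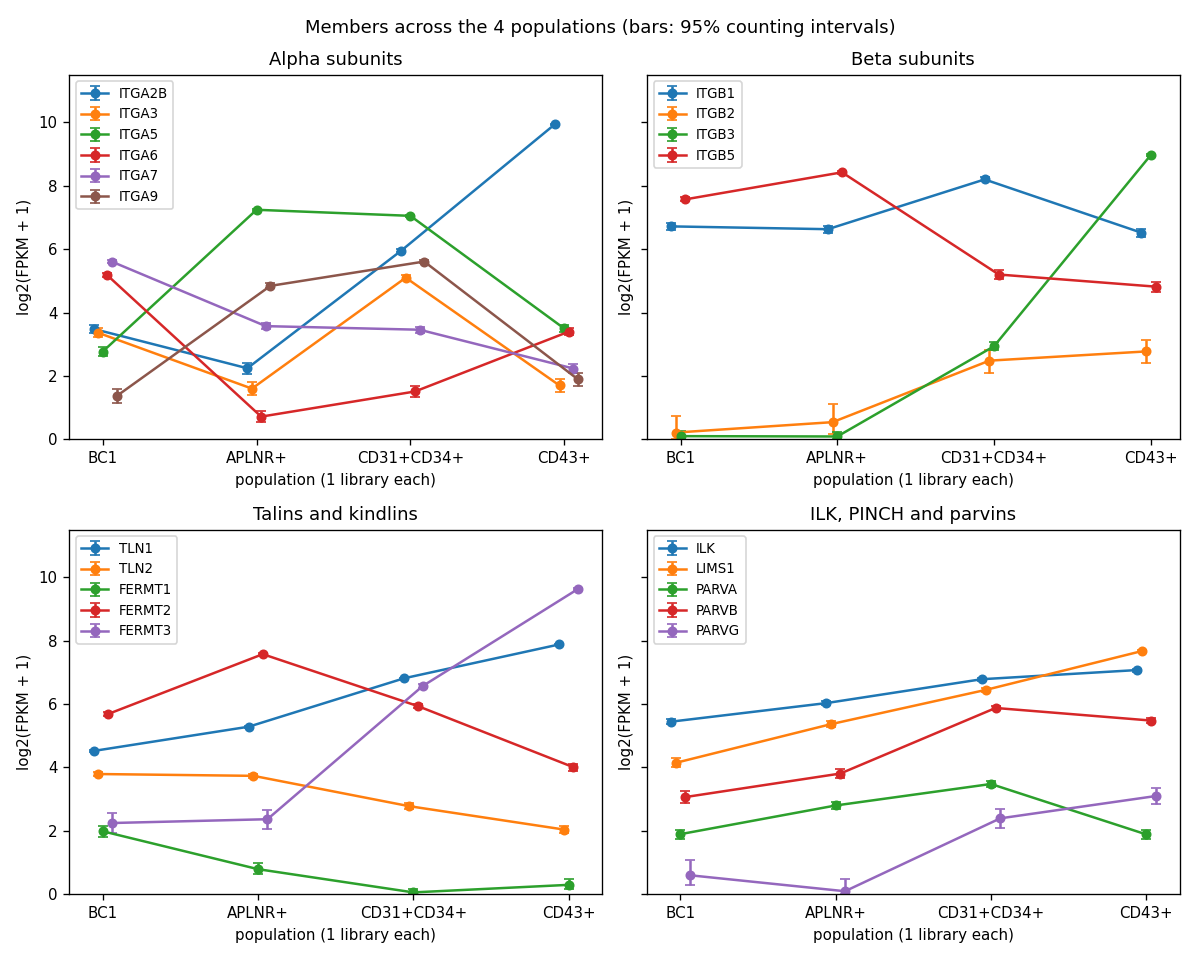
Level of 20 members (log2(FPKM + 1), vertical axis) over the 4 libraries in order of differentiation, in panels by role, with error bars for the 95% interval from counting only. ITGB3 and ITGA2B climb to CD43+ cells, ITGB5 and FERMT2 peak in APLNR+ cells, and ITGA3, ITGA9 and ITGB1 peak in CD31+CD34+ cells.

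Of the talins, TLN1, the form found in most cells, was at 21.9, 37.99, 111 and 234.5 FPKM in the 4 libraries, and TLN2 was at 12.8, 12.3, 5.87 and 3.12. TLN1 rose 2.93-fold (2.85 to 3.01) at the second step and 2.11-fold (2.07 to 2.14) at the last. TLN2 changed by -0.95 at the second step, just short of the size rule. Its value is the sum of 2 rows with overlapping loci. The shorter row was at 2.81, 0, 3.80 and 0 FPKM, and the longer row at 10.04, 12.3, 2.07 and 3.12 FPKM. The longer row alone was thus higher in CD43+ than in CD31+CD34+ cells, whereas the sum was lower. Taking the higher row in each library instead of the sum gave -1.47 at the second step.

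The kindlins exchanged. FERMT2 (chromosome 14, 52857268 to 52952435), the kindlin of most adherent cells, was at 50.2, 189, 60.05 and 15.1 FPKM. It rose 3.77-fold (3.58 to 3.97) into APLNR+ cells and fell 3.15-fold (3.01 to 3.30) and 3.98-fold (3.64 to 4.36) at the next 2 steps. FERMT3 (chromosome 11, 64206678 to 64223886), the kindlin of blood cells, whose loss causes a leukocyte adhesion deficiency with bleeding, was at 3.75, 4.16, 93.8 and 790 FPKM. It rose 22.6-fold (17.7 to 29.4) into CD31+CD34+ cells and 8.42-fold (7.99 to 8.87) into CD43+ cells, and was the higher kindlin from day 5 on. The 6 hematopoietic markers summed to 3.06, 7.62, 336 and 652 FPKM. All 5 of them past the filter rose into CD31+CD34+ cells, beside 13.0% of all genes, LAPTM5 to 180.4 and TAL1 to 71.2 FPKM. PTPRC stayed at most 0.0349 FPKM. The part of these markers in the FERMT3 level was not tested. FERMT1, the kindlin of epithelia, was at 2.96, 0.730, 0.0418 and 0.229 FPKM and fell 4.06-fold at the first step.

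In the ILK, PINCH and parvin complex, ILK was at 42.5, 64.3, 109 and 133 FPKM, with no single step past the size rule. LIMS1 was at 16.7, 40.2, 86.4 and 202 FPKM and rose at all 3 steps, by 2.41-fold, 2.15-fold and 2.34-fold. The near-identical copies LIMS3 and LIMS4 were listed at 0. Of the parvins, which link ILK to actin, PARVB was at 7.36, 13.0, 57.7 and 43.6 FPKM and rose 4.44-fold (3.97 to 4.99) into CD31+CD34+ cells. PARVG, the parvin of blood cells, was at 0.516, 0.0686, 4.26 and 7.55 FPKM and also rose there, by 62.1-fold. At its median transcript length this was from about 1 fragment, with an interval of 10.2 to 2357. With its longest transcript the interval was 30.2 to 157. PARVA was at 2.72, 5.96, 10.1 and 2.70 FPKM, a 3.75-fold fall (3.25 to 4.33) into CD43+ cells. The PARVB locus shares 11321 bases with SAMM50 on the same strand, a gene at 26.7 to 36.5 FPKM.

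The share of the summed FPKM shows which gene led each class. Among the 18 alpha subunits, ITGA7 held 32.4% and ITGA6 23.9% of the sum in BC1, ITGA5 held 63.0% in APLNR+ cells and 36.7% in CD31+CD34+ cells, and ITGA2B held 93.2% in CD43+ cells. Among the beta subunits, ITGB5 held 63.7% in BC1 and 77.2% in APLNR+ cells, ITGB1 held 85.7% in CD31+CD34+ cells and ITGB3 held 79.9% in CD43+ cells. Thus each step from APLNR+ cells on had a new leading beta subunit. FERMT2 held 97.5% of the kindlin sum in APLNR+ cells and 39.0% in CD31+CD34+ cells, where FERMT3 held 61.0%, and FERMT3 held 98.1% in CD43+ cells. TLN1 went from 63.0% of the talin sum in BC1 to 98.7% in CD43+ cells.

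**Figure D4:**
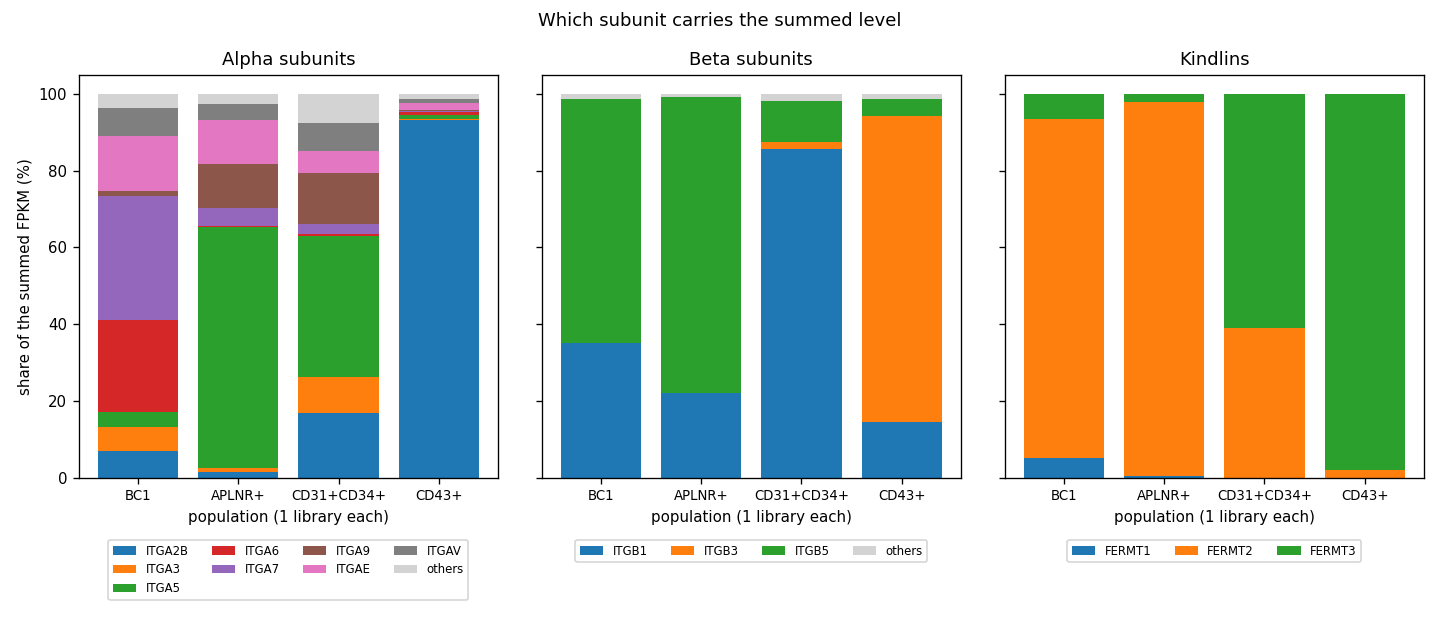
Share of the summed FPKM (vertical axis, percent) that each gene takes among the alpha subunits, the beta subunits and the kindlins in the 4 libraries, with genes below 5% everywhere drawn together in grey. The leading beta subunit changes from ITGB5 to ITGB1 to ITGB3, and the leading kindlin from FERMT2 to FERMT3.

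A receptor needs both of its subunits, so the lower of the 2 levels was taken for each of 24 known pairs. Subunits such as ITGB1 and ITGAV belong to several pairs, and their whole level was used for each. The ITGAV level of 10.2 FPKM in CD43+ cells, for example, stands for its pairs with ITGB1, ITGB3 and ITGB5. The counts of pairs are therefore not counts of separate receptors. Both subunits reached 1 FPKM for 11 pairs in BC1, 8 in APLNR+ cells, 14 in CD31+CD34+ cells and 13 in CD43+ cells. The highest of these lower levels was that of ITGA7-ITGB1 in BC1 (47.7 FPKM), of ITGA5-ITGB1 in APLNR+ cells (98.1) and CD31+CD34+ cells (132), and of ITGA2B-ITGB3 in CD43+ cells (501). In APLNR+ cells ITGB1 was the lower subunit of the ITGA5 pair, whereas in the other 3 libraries it was ITGA5. For ITGA2B-ITGB3 the beta subunit was the lower in all 4 libraries, with ITGA2B 9.12 times higher in CD31+CD34+ cells and 1.96 times higher in CD43+ cells. The ITGAV-ITGB5 pair was at 10.8, 9.62, 25.9 and 10.2 FPKM, and ITGAV was the lower subunit throughout. These are RNA levels, and no surface protein was measured.

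**Figure D5:**
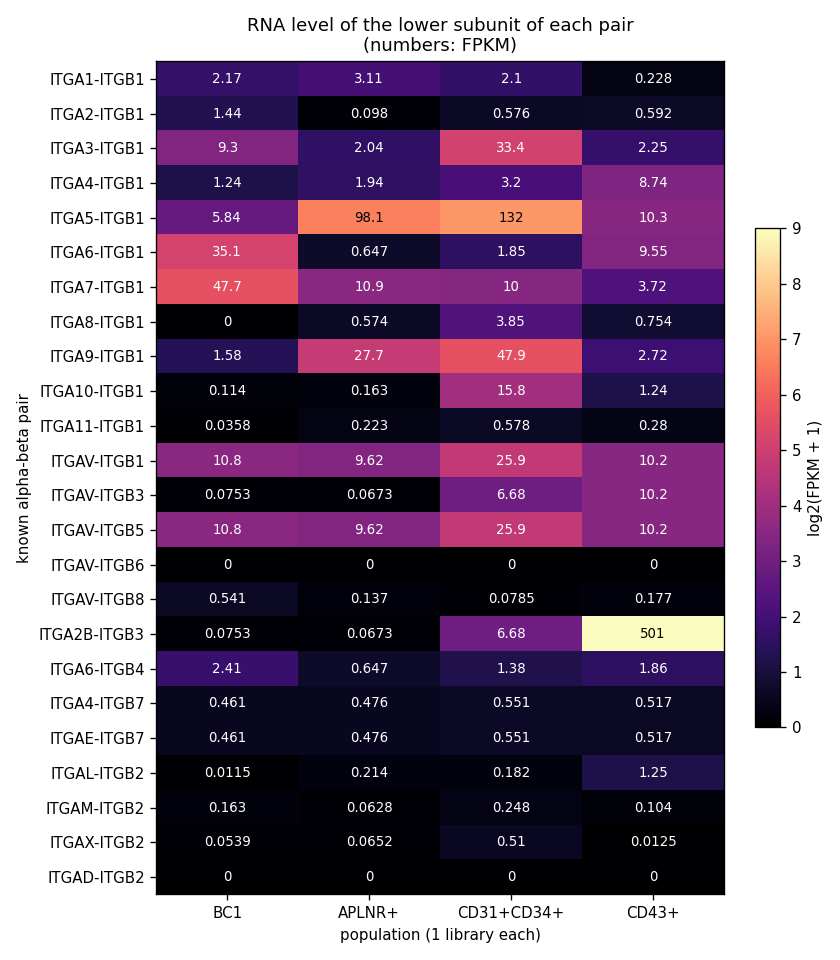
FPKM of the lower subunit of each of the 24 known pairs (rows) in the 4 libraries (columns), with colour on the log2(FPKM + 1) scale. ITGA5-ITGB1 leads in APLNR+ (98.1) and CD31+CD34+ cells (132) and ITGA2B-ITGB3 in CD43+ cells (501).

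Regulators of inside-out activation, both activators and a competitor of talin (FLNA) among them, were described as a list of 19 genes, of which 17 passed the filter. At the 3 steps 2, 7 and 4 rose (11.8%, 41.2% and 23.5%, beside 9.15%, 13.0% and 7.63% of all genes) and 1, 2 and 2 fell (5.88%, 11.8% and 11.8%, beside 9.32%, 11.4% and 13.5%). RASGRP2, which activates RAP1 in platelets, was at 31.1, 1.52, 87.6 and 136 FPKM and rose 57.5-fold (32.8 to 106) into CD31+CD34+ cells. RAP1B, the small GTPase that it activates, was at 60.3, 58.2, 175 and 729 FPKM. APBB1IP, which recruits talin to RAP1, was at 0.101, 0.111, 0.583 and 53.3 FPKM and rose 91.4-fold (61.3 to 138) into CD43+ cells. RASGRP2, RAP1B and APBB1IP had their highest level in CD43+ cells, where TLN1 and FERMT3 were also highest. The list did not move as one. At the last step 4 of the 17 rose, 2 fell and 11 did neither. RAPGEF1, KANK2, TLNRD1, ITGB1BP1 and CIB1 were among those lower in CD43+ than in CD31+CD34+ cells. FLNA, which competes with talin for beta tails, was at 203, 261, 90.5 and 387 FPKM. It fell at the second step and rose at the last. Of the other named genes of the list, TLNRD1 rose at the first step (19.1 to 69.2 FPKM), DAB2 rose at the second (3.46 to 21.4), FYB1 rose at the last (0.312 to 16.6), KANK1 fell at the second (10.8 to 3.97), and KANK2 (89.3 to 20.03) and RAPGEF1 (24.1 to 7.90) fell at the last.

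Of 36 focal adhesion adaptors and kinases, all past the filter, 2, 9 and 6 rose at the 3 steps and 1, 2 and 8 fell. The rises were 5.56%, 25% and 16.7% of the list, beside 9.15%, 13.0% and 7.63% of all genes, and the falls were 2.78%, 5.56% and 22.2%, beside 9.32%, 11.4% and 13.5%. PXN (paxillin), a scaffold of focal adhesions, was at 91.4, 160, 143 and 8.56 FPKM, a 16.7-fold fall (15.4 to 18.3) at the last step. The adaptors TNS2 (34.8 to 2.40 FPKM) and BCAR1 (117 to 21.1) fell there too, whereas the kinases SYK and PTK2B rose, from 2.36 to 14.2 FPKM and from 3.94 to 20.5 FPKM. VCL (vinculin), which binds talin under tension, was at 123, 46.1, 49.2 and 158 FPKM. It fell at the first step, at which SRC (17.3 to 104 FPKM) and TGFB1I1 (3.53 to 12.8) rose. FYN (30.2 to 306 FPKM), ARHGEF6 (1.51 to 18.9) and TNS2 (8.71 to 34.8) rose at the second step. FHL2 was at 18.5, 13.2, 3.72 and 19.5 FPKM, falling at the second step and rising at the last.

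Of 32 integrin ligands, 30 passed the filter, and 11, 10 and 3 rose at the 3 steps while 7, 9 and 10 fell. The rises were 36.7%, 33.3% and 10% of the list, beside 9.15%, 13.0% and 7.63% of all genes, so that the last was near the background. The falls were 23.3%, 30% and 33.3%, beside 9.32%, 11.4% and 13.5%. FN1 (fibronectin), the ligand of ITGA5-ITGB1, was at 23.7, 68.4, 90.6 and 5.73 FPKM, a 15.8-fold fall (14.8 to 16.9) at the step at which ITGA5 fell 12.8-fold. THBS1, a ligand of ITGB3 pairs among others and a product of platelets, was at 8.79, 4.22, 1.47 and 579 FPKM, a 393-fold rise (334 to 471) at the last step. TGFB1, whose latent form is bound by ITGAV pairs, was at 4.59, 102, 357 and 585 FPKM. VTN (vitronectin), a ligand of ITGAV-ITGB5, was at 9.70, 22.9, 5.88 and 4.50 FPKM and fell at the second step, as ITGB5 did. ICAM2, a ligand of the leukocyte pair ITGAL-ITGB2, was at 0.00918, 0.814, 71.9 and 65.7 FPKM. FBN2, a microfibril protein, rose to 176 FPKM in APLNR+ cells and fell to 34.7 and 2.69 FPKM after them. LRRC32 rose at the first step (0.639 to 10.8 FPKM), and CDH1 (70.9 to 5.14), EDIL3 (12.8 to 1.64) and MFGE8 (727 to 159) fell. EDIL3 (1.64 to 33.9 FPKM) and VWF (0.484 to 13.6) rose at the second step, and TNC fell (16.6 to 3.91). LTBP1 (18.4 to 159 FPKM) and ICAM4 (20.2 to 105) rose at the last step, and EDIL3 fell (33.9 to 4.29).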

How the data were processed

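RNA was sequenced from 4 populations, 1 library each, with an Illumina TruSeq kit. The authors deposited 1 table of gene-level FPKM values. The submitters' processing notes name BWA, Bowtie, RSEM and hg19 without roles, yet the identifiers and loci of the table match GENCODE release 29 on GRCh38, so coordinates, counted from 1, are those of GRCh38. The program that made the FPKM and its use of strand are not given in the sources used here. Rows of 1 gene identifier were summed. Protein tails were not analysed here.

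Values were compared as log2(FPKM + 1), which understates changes of low genes, among the 17137 genes that reached 1 FPKM in any library. A change of at least 1 was counted. Depth was fitted from the steps between low values, of which 91.4% to 93.0% fell within 0.1 of a whole number of fragments. The 95% intervals (exact Poisson for levels, exact Clopper-Pearson for folds) use fragments estimated from the median length of a gene's protein-coding transcripts. This length is too short for some genes (ITGB1, ITGB2 and PARVG among them), which makes their intervals too wide. Intervals cover counting error only. A floor of 3 fragments stood in for a value of 0, and no fold was given where both values were at or under it. A low value above 0 was otherwise kept as it was. The depth fit and the counting of changes were tested on simulated data with known answers. Named genes were every member past the filter and, of each pathway list, up to 3 rises and 3 falls per step among genes of 10 FPKM or more in the higher library. The members and all lists, pairs and motifs were chosen with earlier results of these data known. Alternatives were a pseudocount of 0.1, no filter, a minimum of 5 FPKM, a threshold of 2, 2 rescalings and the highest row of a gene in place of the sum. Python 3.11.15, numpy 2.4.6, pandas 2.3.3 and scipy 1.17.1 were used.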

Additional observations from a re-analysis of the deposited data

How the results depend on the processing

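The counts of members that rose and fell rest on the size rule. With a threshold of 2 in place of 1, the numbers rising and falling were 2 and 2 at the first step, 7 and 1 at the second, and 3 and 4 at the last. Of all genes, 2.68% rose and 2.29% fell at the first step under it, 4.08% and 3.145% at the second, and 2.28% and 4.32% at the last. With a pseudocount of 0.1, 8 members rose at the first step and 4 fell at the second, since low genes such as ITGA8, ITGAL and FERMT1 then pass. Of all genes, 13.6% rose at the first step and 16.7% fell at the second with that pseudocount. The other counts under these settings, without the filter, with a minimum of 5 FPKM, under both rescalings and with the highest row per gene stayed within 1.5 times. No change of a member that had passed the rule reversed direction under any of them. TLN2 fell at the second step (-1.47) with the higher row of each library, which was not the same row in both, and (-1.06) with the smaller pseudocount. With 1 library per population, variation between cultures and sorts cannot be separated from the differences between populations. No paired analysis was possible because each population has 1 library.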

Other observations

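Genes that overlap a member and reached 1 FPKM numbered 17, over 12 of the 36 members. ITGA9-AS1, antisense to ITGA9, was at 0.786, 1.38, 3.67 and 10.1 FPKM in the order of differentiation. It was highest in CD43+ cells, where ITGA9 was at 2.72 FPKM, and lowest in BC1, where ITGA9 was at 1.58 FPKM. AC078883.1, antisense to ITGA6, was at 3.20, 1.19, 2.47 and 7.03 FPKM. TAF10 shares 4579 bases with ILK on the opposite strand and was at 65.95 to 99.5 FPKM. GALK1 shares 6225 bases with ITGB4, also on the opposite strand, and was at 21.4 to 50.8 FPKM. PELO lies inside ITGA1 on the same strand and was at 4.12 to 11.1 FPKM. Without strand, reads of a gene and its antisense partner cannot be told apart. The share of reads from overlapping genes in the values of ITGA1, ITGA6, ITGA9, ITGB4 and ILK was not tested.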
